A study of Mus musculus with 24 samples.

Results

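Kidney was compared with brain, heart and liver in mouse H3K4m3-Seq, which sequences the chromatin pulled down by an antibody to H3K4m3, the trimethyl form of lysine 4 on histone H3. The kidney side consists of the 2 table columns labelled kidney, 1 from flash-frozen and 1 from formalin-fixed, paraffin-embedded (FFPE) tissue, out of 8 columns in all. The other 6 columns are frozen and FFPE brain, frozen and FFPE heart, and frozen and FFPE liver. Each column is called a library here. The labels list 3 kidney H3K4m3 samples, 2 FFPE and 1 frozen, and the sources used here do not say whether the FFPE column holds 1 of its samples or both merged. All tissue is from mice with no allele or agent named, and strain, sex, age and number of animals are not given in the labels. Frozen cores were crosslinked before shearing, whereas FFPE sections were taken out of paraffin and heated in extraction buffer, so that preservation and chromatin preparation cannot be told apart. A whole organ piece mixes many cell types. Fewer cells of a type and less of the mark per cell cannot be told apart in such samples.

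H3K4m3 sits around the start sites of genes that are active or held ready for activation. In the kidney, filtered plasma runs along tubules lined by epithelial cells, which recover solutes through transporters, seal the tubule wall with claudins and answer to hormones such as vasopressin. Many of the transcription factors that pattern the tubule during development stay in use in the adult segments. Genes outside the Hox clusters and the segment marker lists of the tubule are described first of all.

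The deposited values are log2 CPM per gene, from reads plus 0.5 over a scaled library size. Recovered depth was 5275085 reads in FFPE kidney and 2267190 in frozen kidney, and from 1792394 to 4811825 in the other 6 libraries. Where a gene has 0 reads, counting error alone leaves room for 3, or 0.537 CPM in FFPE kidney and 1.35 CPM in frozen kidney. The kidney label was checked on 4 marker genes. Hoxa9, a homeobox gene of the posterior body, read 7.32 in FFPE and 7.79 in frozen kidney, against 1.35 to 4.09 in the others. Cldn8, a claudin of the collecting duct, read 6.34 and 6.90, against 2.49 to 3.84. Umod, the urinary protein of the thick ascending limb, read 5.76 and 6.87, against 2.49 to 4.24. Pax8, a transcription factor of the renal epithelium, read 5.73 and 6.15, against 2.38 to 4.61. In all 4 cases both kidney libraries lay above all 6 others, as the label has it.

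Kidney differed from the mean of the other organs at 310 of 25680 tested genes, or 1.21%, with 206 genes higher in kidney (0.802%) and 104 lower (0.405%). The test was a linear model in limma with organ and preservation as terms, and a gene is said to pass, or to be higher or lower, when its Benjamini-Hochberg adjusted p over all tested genes is under 0.05. In this model the frozen and the FFPE library of an organ stand in for replicates. Leaving out genes with a Hox name, 176 were higher. An unadjusted p under 0.05 in limma was reached at 2480 of the 25680 genes. The median log2 difference of all tested genes was 0.02, and that of the 206 was 1.73. At 164 of the 206 both kidney libraries lay above all 6 others, which held for 732 tested genes in all (2.85%). At 46 of the 104 lower genes both kidney libraries lay below all others, which held for 293 tested genes (1.14%).

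A difference from the mean of 3 organs can come from 1 of them, so kidney was also set against each organ singly. Kidney was higher than each of brain, heart and liver at 60 genes (0.234% of those tested), 43 of them without a Hox name, and lower than each at only 6 (0.0234%), which were Srrm4, Fxyd1, Ppp1r3g, Thrsp, Ablim3 and A930018M24Rik. Of the 206 higher genes, 167 also passed against brain, 149 against liver and 101 against heart. For 57 of them the single organs passed were brain and liver without heart. Of the 104 lower genes, 86 passed against brain, 41 against liver and 24 against heart, and 49 passed against brain alone. The higher genes therefore more often set kidney apart from several organs, while 63 of the 104 lower genes passed against 1 organ only. These shares were counted, not tested against each other. Over all tested genes, kidney was higher than brain at 2.77% and lower at 3.52%, higher than heart at 0.561% and lower at 0.401%, and higher than liver at 1.5% and lower at 1.81%. Adjustment was run for each organ separately, so equal differences can have unequal adjusted p. Hoxa9 stood 3.68 above brain and 3.68 above heart (SE 0.54 each), with adjusted p of 0.000967 and 0.00618 in limma. A gene that did not pass against heart is thus not shown to be level with heart.

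The number of genes that passed changed when single libraries were left out. Without frozen kidney 0 genes passed in limma (563 had an unadjusted p under 0.05), and without FFPE kidney 167 passed, 131 of them among the 310. With either one left out the kidney side is 1 library, which is assumed to vary like the other organs. The median of the 206 higher genes was 1.34 without frozen and 2.09 without FFPE kidney, that of the 104 lower ones -1.04 and -1.48, and all 310 kept their direction. The genes were chosen on the mean of both kidney libraries. Their kept direction, here and for the named genes at the end of this paragraph, is therefore a description and no test. The number was 136 without frozen brain and 128 without frozen heart, but 1030 without FFPE liver and 852 without the frozen one. The 66 genes that differed from each organ singly in 1 direction became 0 without frozen kidney (79 at an unadjusted p under 0.05) or without frozen heart (251), 17 without FFPE heart, 31 without frozen brain, 40 without FFPE brain, 41 without FFPE kidney and 140 without FFPE liver. With kidney against all other libraries as a 2-level term in place of the 4 organs, 0 genes passed and 944 had an unadjusted p under 0.05. Counts of members below share these limits: without frozen kidney each of them falls to 0. With a brain, heart or liver library left out, the higher kidney development factors described below numbered 7 (without frozen brain) to 19 (without FFPE liver). Higher epithelial genes numbered 6 (without frozen brain or frozen heart) to 14 (without frozen liver), higher claudins 4 to 7, higher solute carriers 3 (without frozen brain or frozen heart) to 23 (without FFPE liver), and higher hormone and receptor genes 1 (without frozen brain or frozen heart) to 7 (without FFPE liver). Higher branching signals numbered 0 (without frozen brain or FFPE heart) to 6 (without FFPE liver), genes of cystic disease 0 (without frozen heart) to 5 (without either liver library), and brush border enzymes 0 (without any 1 brain or heart library) to 4 (without FFPE liver). Integrins fell to 0 without frozen brain or either heart library. Without FFPE liver, genes for protection against high salt numbered 4, endocytosis receptors 3 and endothelial genes 2. Lower neuron genes numbered 1 to 4, and lower heart muscle genes 0 to 2. Of 102 cytochrome P450 genes 4 were higher and 5 lower without FFPE liver, and of the Serpin genes 2 and 6. Of the genes named here 107 passed, of which 55 still passed without FFPE kidney and 0 without frozen kidney, and none of the 107 changed direction in any alternative run.

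The bases just before the start of 6 genes that the comparison turns on are printed here to show which sequence lies before their starts. Where the mark sits relative to these bases was not measured, since there is 1 value per gene. Each run is the 250 bases before the gene's start in RefSeq's GRCm38 table, 5′ to 3′ on the gene's strand. Capitals mark CG pairs, except in Emx2, where they mark the 54 bases between the end of Emx2os and the start of Emx2.
Umod, chr7:119479263-119479512, minus strand: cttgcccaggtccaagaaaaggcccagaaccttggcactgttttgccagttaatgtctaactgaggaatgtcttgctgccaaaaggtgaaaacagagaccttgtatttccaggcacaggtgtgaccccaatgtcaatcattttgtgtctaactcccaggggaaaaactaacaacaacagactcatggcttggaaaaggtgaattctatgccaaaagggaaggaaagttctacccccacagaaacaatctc
Pax8, chr2:24475600-24475849, minus strand: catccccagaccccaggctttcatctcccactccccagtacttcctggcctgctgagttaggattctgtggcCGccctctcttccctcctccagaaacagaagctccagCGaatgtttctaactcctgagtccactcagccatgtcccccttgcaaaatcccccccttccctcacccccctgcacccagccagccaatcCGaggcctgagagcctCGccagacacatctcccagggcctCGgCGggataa
Kl, chr5:150952357-150952606, plus strand: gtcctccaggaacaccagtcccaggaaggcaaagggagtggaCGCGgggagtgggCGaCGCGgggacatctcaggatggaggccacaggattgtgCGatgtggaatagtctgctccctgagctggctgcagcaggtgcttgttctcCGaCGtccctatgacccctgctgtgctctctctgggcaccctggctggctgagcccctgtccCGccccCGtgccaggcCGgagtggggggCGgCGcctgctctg
Spint1, chr2:119237110-119237359, plus strand: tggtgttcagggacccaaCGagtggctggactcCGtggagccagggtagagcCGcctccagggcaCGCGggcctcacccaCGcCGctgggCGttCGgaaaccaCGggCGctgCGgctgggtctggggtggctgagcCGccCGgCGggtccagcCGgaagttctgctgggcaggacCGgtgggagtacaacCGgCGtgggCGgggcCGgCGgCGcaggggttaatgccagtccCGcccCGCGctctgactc
Emx2, chr19:59458440-59458689, plus strand: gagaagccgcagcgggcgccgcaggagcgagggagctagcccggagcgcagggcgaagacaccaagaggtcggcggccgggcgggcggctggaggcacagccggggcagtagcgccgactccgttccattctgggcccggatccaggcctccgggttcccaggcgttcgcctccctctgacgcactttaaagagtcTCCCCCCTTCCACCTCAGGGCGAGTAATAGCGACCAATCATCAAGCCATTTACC
Thrsp, chr7:97417551-97417800, minus strand: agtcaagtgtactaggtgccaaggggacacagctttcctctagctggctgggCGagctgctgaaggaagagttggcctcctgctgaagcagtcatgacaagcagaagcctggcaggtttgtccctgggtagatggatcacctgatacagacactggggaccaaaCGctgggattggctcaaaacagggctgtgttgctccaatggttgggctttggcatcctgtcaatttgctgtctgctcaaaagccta
These kidney-higher genes include a start with 0 CG pairs in this window (Umod), others with 6 (Pax8) and 13 (Kl), and starts with 24 (Emx2) and 26 (Spint1). Thrsp, lower in kidney, has 2. Over the 18321 tested genes with a promoter in the table, the median was 10 CG pairs in the same window and the quartiles were 3 and 19. Only 72.2% of the 176 higher genes without a Hox name had an entry, and 71.3% of all tested genes. Promoter features of gene sets were counted but not tested. With so many genes lacking an entry, no comparison of sets is drawn here.

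Genes of the epithelial surface were among the higher ones. In a list of 37 genes of epithelial identity, 8 were higher in kidney and 0 lower, the median log2 difference was 0.78, and 35 of 37 differences were above 0. Over all 25680 tested genes 0.802% were higher and 0.405% lower, and 13528 differences were above 0. This list and those below were chosen with earlier results of these data known, so shares are set side by side and not tested. Epcam, the adhesion molecule that defines many epithelia (gene ID 17075, GRCm38 chromosome 17, 87635979 to 87651127), had log2 values of 5.52 in FFPE and 6.20 in frozen kidney. The 6 other libraries ran from 3.46 over a median of 4.06 to 4.58, so the groups did not overlap. The difference was 1.84 ± 0.27 (SE, 2 kidney and 6 other libraries), a 3.57-fold higher value, with an adjusted p of 0.00346. Elf3, an ETS factor of epithelial cells, read 5.78 and 6.20 against 3.35 to 4.55 and was 4.45-fold higher, also than each organ. Krt7, a keratin of simple epithelia, was 3.93-fold higher at an adjusted p of 0.0343, and Esrp1, an epithelial splicing regulator, 2.95-fold at 0.0225. Both were short of the threshold against heart alone. Muc1, a membrane mucin, and Cd24a, a surface glycoprotein, are on no list. They were 2.91-fold and 4.44-fold higher with no overlap between kidney and the rest. Epcam, Krt7, Esrp1, Muc1 and Cd24a were named after their values were seen.

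A few proteases and 1 inhibitor were higher as single genes. Of 65 Serpin, 17 Tmprss and 24 Adamts genes 0 passed in limma, where 1.21% of all tested genes passed. In the same test 11, 2 and 4 of them had an unadjusted p under 0.05. Of 23 Mmp genes 0 were higher and 1 lower, Mmp15, which was 2.03-fold lower at an adjusted p of 0.0116 and was named after its values were seen. Prss8, a membrane-anchored serine protease of epithelia (chromosome 7, 127925717 to 127930149), read 6.43 and 7.24 in kidney and from 2.57 to 5.17 in the others, a log2 difference of 2.84 ± 0.39 and an adjusted p of 0.00217. Spint1, the membrane inhibitor of such proteases whose start is printed above (chromosome 2, 119237360 to 119249535), read 6.16 and 6.92 against 3.30 to 4.75. It was 6.09-fold higher at an adjusted p of 0.00168. Spint1 passed against each organ, while Prss8 did not pass against liver (1.76, adjusted p = 0.064). Plau, the secreted protease urokinase (chromosome 14, 20836662 to 20843388), read 6.98 and 8.08 in kidney against 4.06 to 5.61. Its difference of 2.85 ± 0.29, at an adjusted p of 0.000237, passed against all 3 organs and was least over heart, at 2.15. Klk1, tissue kallikrein, read 4.00 and 3.92 in kidney and from 0.50 to 2.91 elsewhere. It rested on 122 reads in kidney and 76 in the other libraries together. Its adjusted p was 0.047, and it passed against no single organ. Of 28 kallikrein-named genes it was the one that passed, and it was named after its values were seen. The 29 members of the epithelial list that did not pass include Cdh1, the cadherin of epithelial junctions (adjusted p = 0.112). Without FFPE kidney 6 of the 37 were higher.

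**Figure D1:**
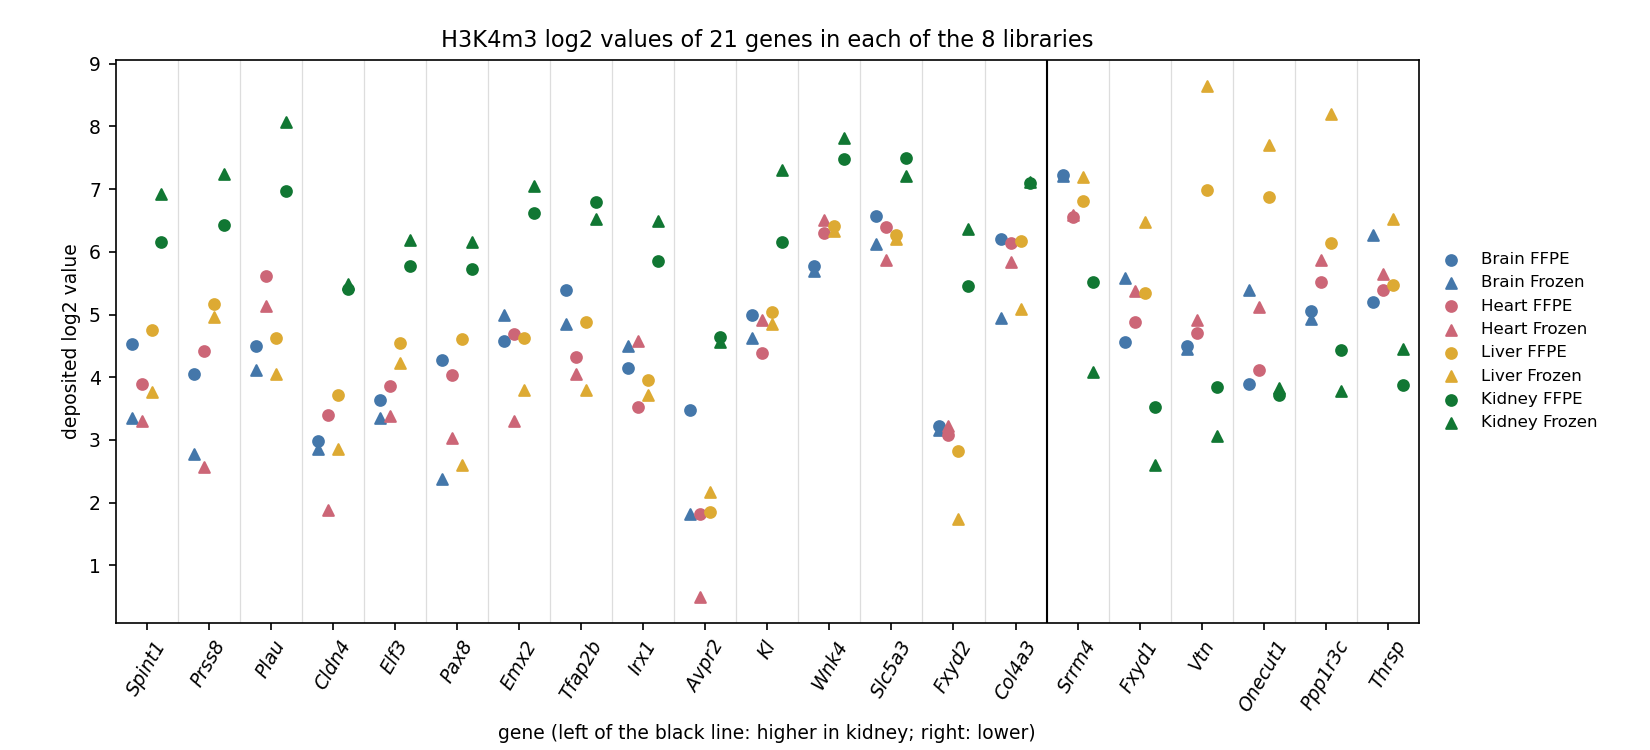
Deposited log2 value (vertical axis) of 21 genes in each of the 8 libraries, with circles for FFPE and triangles for frozen tissue, 1 colour per organ. In the 15 genes left of the black line both kidney points lie above the points of brain, heart and liver, and in the 6 genes on the right both lie below them.

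Claudins, the proteins that seal the space between epithelial cells and set which ions pass, were higher at 5 of 31 tested genes and lower at 0, with a median difference of 0.60. The higher share was 16.1%, against 0.802% of all tested genes. Besides the marker Cldn8, Cldn4 read 5.40 and 5.49 in kidney against 1.88 to 3.72. Its difference of 2.50 ± 0.40 gave an adjusted p of 0.00582. Cldn7 read 5.96 and 6.10 against 2.94 to 4.16, 5.08-fold higher at 0.00168. These 3 were higher than each of the other organs. Cldn4 and Cldn7 are also on the list of epithelial identity and counted there. Cldn10, a claudin of the loop, read 4.91 and 6.32 against 1.35 to 4.18 with an adjusted p of 0.0236, and passed singly against liver alone. Cldn2, which lets sodium and water pass in the proximal tubule, showed another pattern. It read 5.73 and 6.79 in kidney, but the highest other library reached 7.23. Kidney exceeded brain by 2.79 and heart by 3.61, whereas the difference from liver was -0.31 (adjusted p = 0.84). In all, 8 of 31 claudins had both kidney libraries on top, which held for 2.85% of all tested genes. Cldn2 was not one of the 8. Without FFPE kidney 6 of the 31 were higher.

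Transcription factors with a role in forming the kidney were compared as a list without the Hox genes. Of 33 factors of kidney development, 12 were higher and 0 lower, with a median difference of 0.75. The marker Pax8, on which the kidney label was checked, is among the 12. Among all tested genes 0.802% were higher and 0.405% lower. Emx2, a homeobox gene needed to form the kidney (chromosome 19, 59458690 to 59465357), read 6.62 and 7.05 in kidney and from 3.30 to 4.99 in the others. It was 5.68-fold higher with an adjusted p of 0.00168, and higher than brain (2.05), where it also acts in the cortex, as well as heart (2.84) and liver (2.63). Its antisense neighbour Emx2os, separated from it by the 54 bases printed above, was 2.83-fold higher. Reads near the shared start may fall to either gene, so the pair counts as 1 signal. Emx1, the related cortical factor, read 4.70 and 5.32 against 1.35 to 4.14. It passed overall at an adjusted p of 0.04 and singly against liver alone.

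Tfap2b, a factor of the distal nephron (chromosome 1, 19208908 to 19238845), read 6.80 and 6.52 against 3.80 to 5.39. Its difference was 2.11 ± 0.24 with an adjusted p of 0.000536, and it was higher than each organ. The Iroquois factors, which pattern the middle of the nephron, are a family of 6 genes, of which 3 passed: Irx1 (4.28-fold), Irx2 (3.46-fold) and Irx3 (1.97-fold). Irx1 and Irx2 were above all other libraries and higher than each organ. Irx3 read 6.77 and 7.40 in kidney, overlapped with a highest other value of 6.91, and differed from heart by only 0.19 (adjusted p = 0.86). Pou3f3, a factor of the loop of Henle and of cortical neurons, read 6.99 and 6.87 against 3.95 to 6.54. It stood 2.37 above heart and 2.71 above liver, but only 0.52 above brain (adjusted p = 0.38). The RNA gene 2900092D14Rik, 126 bases from it, did the same, with 0.77 over brain.

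Tfcp2l1, a factor of the collecting duct, was 2.87-fold higher, and Sim1, a factor of the nephron and hypothalamus, 2.65-fold. Both were higher than each organ. Sall1, a zinc finger factor of nephron progenitors, was 2.15-fold higher with an adjusted p of 0.0353 and did not pass against liver. The remaining 21 factors of the list did not pass. Off the list, Ppargc1a, the coactivator of mitochondrial gene expression, read 6.20 and 6.24 in kidney against a narrow 5.29 to 5.49 in the others, 1.82-fold higher (adjusted p = 0.0391). Nr2f2 (2.16-fold), Tbx2 (2.49-fold), Dach1 (2.23-fold) and Foxc1 (1.93-fold) are developmental regulators that passed overall. None of these 4 passed against heart, and Dach1 and Foxc1 overlapped with other libraries. Emx1, Emx2os, 2900092D14Rik, Tfcp2l1, Sim1, Sall1, Ppargc1a, Nr2f2, Tbx2, Dach1 and Foxc1 were named after their values were seen. Without FFPE kidney 6 of the 33 factors were higher.

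**Figure D2:**
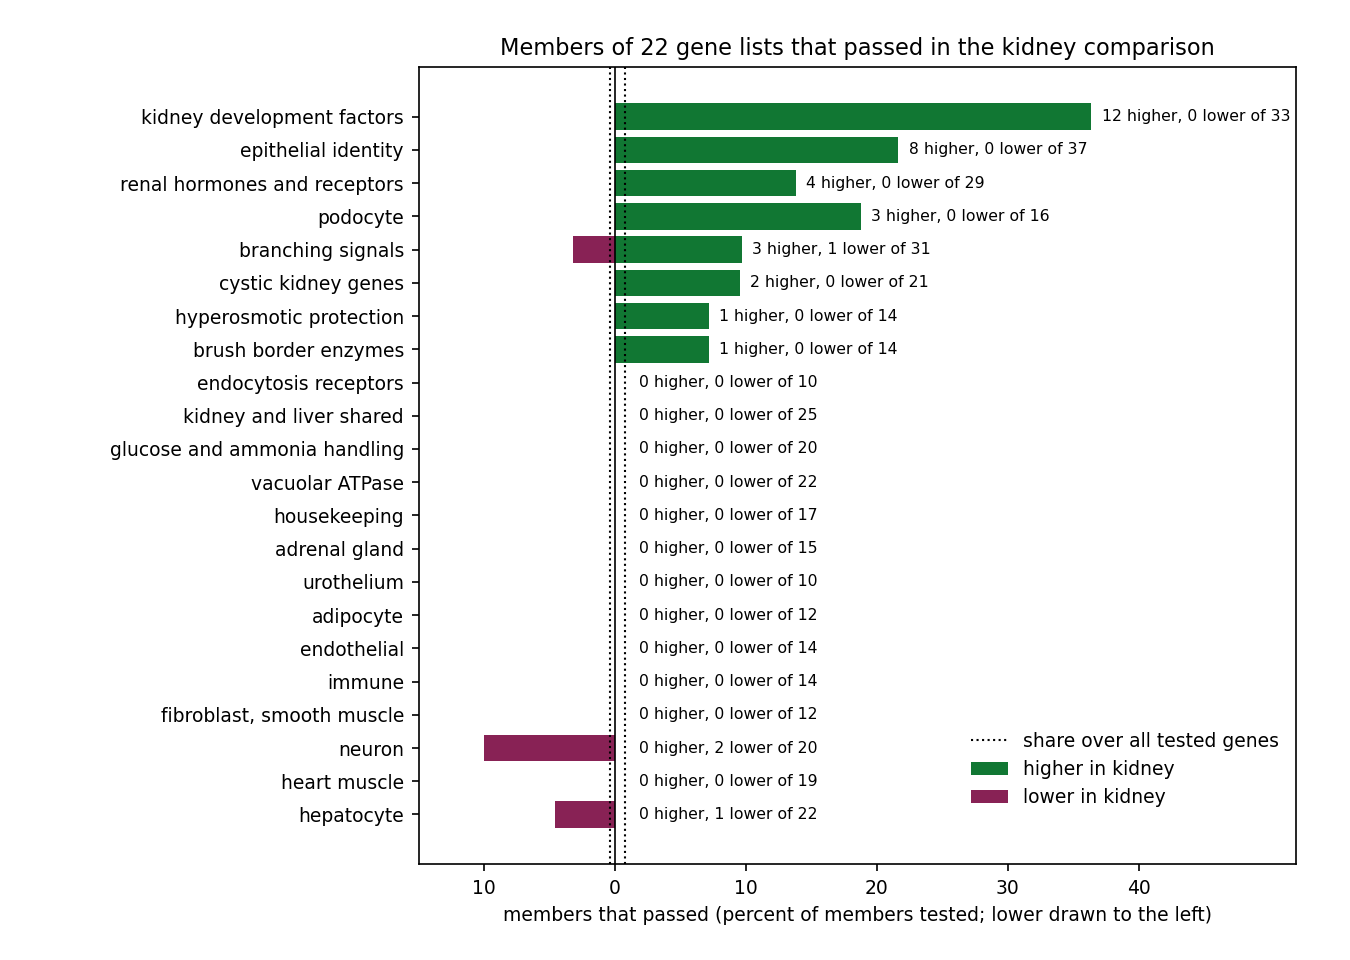
Share of members of 22 gene lists that passed (horizontal axis, percent of members tested), with genes higher in kidney to the right and lower to the left of 0. Dotted lines mark the shares over all tested genes, 0.802% higher and 0.405% lower, and the longest bar is that of the kidney development factors with 12 of 33.

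Of 29 listed hormone receptors and regulators of salt and water, 4 were higher and 0 lower, with a median difference of 0.56. The shares over all tested genes were 0.802% higher and 0.405% lower. Avpr2, the vasopressin receptor of the collecting duct (chromosome X, 73891765 to 73894428), read 4.64 in FFPE and 4.57 in frozen kidney and 0.50, 1.84 and 3.47 as lowest, median and highest elsewhere. The 191 kidney reads stood against 105 in the 6 other libraries. The difference was 2.66 ± 0.52 with an adjusted p of 0.0224, and against brain alone it did not pass (adjusted p = 0.096). Kl, the klotho co-receptor for a phosphate hormone from bone (chromosome 5, 150952607 to 150993817), read 6.16 and 7.30 against 4.39 to 5.05. It was 3.81-fold higher at an adjusted p of 0.00252 and higher than each organ. Ptger3, a prostaglandin E receptor, was 3.15-fold higher with an adjusted p of 0.0209, and Klk1, described above, was the other listed gene to pass. Drd1, a dopamine receptor, lay farthest in the other direction at -0.97 and did not pass.

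Regulators outside that list included Adra2b, an adrenergic receptor (chromosome 2, 127363179 to 127367221). It read 7.10 and 7.86 against 4.68 to 5.89, and its difference of 2.13 ± 0.20 had an adjusted p of 0.000214. Wnk4, a kinase that governs sodium chloride transport in the distal tubule, read 7.49 and 7.82 against 5.69 to 6.50, 2.79-fold higher at 0.00059. Both genes were higher than each organ. Scnn1a, a subunit of the epithelial sodium channel that Prss8 can activate, read 6.25 and 6.71 against 4.43 to 6.01. It was 2.25-fold higher at 0.0391 and passed singly against brain alone. Apela, a peptide ligand of the apelin receptor, was 6.96-fold higher at 0.0215. Adra2b, Wnk4 and Scnn1a were named after their values were seen. Without FFPE kidney 1 of the 29 listed genes was higher.

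Solute carriers passed at a larger share than all genes in both directions, although their median lay near that of all genes. Of 352 tested genes with an Slc name, 9 were higher (2.56%) and 4 lower (1.14%), against 0.802% and 0.405% of all tested genes, and 76 had an unadjusted p under 0.05. Their median difference was 0.10, and that of all genes 0.02. The higher ones carry amino acids, urate, phosphate, inositol and salt. Slc6a18 and Slc6a19, transporters of neutral amino acids, lie 1722 bases apart on chromosome 13 and were 2.88-fold and 3.23-fold higher. Slc6a19os, an antisense gene that overlaps Slc6a19, was 4.63-fold higher, and reads in the overlap cannot be told apart. Slc7a9, a cystine carrier, and Slc7a13, an acidic amino acid carrier, were 3.49-fold and 3.29-fold higher. Slc22a12, the urate exchanger of the proximal tubule, read 6.23 and 6.84 against 3.20 to 5.49 and was 4.84-fold higher, with an adjusted p of 0.00168 and a pass against each organ. Slc34a1, the main phosphate carrier of the proximal tubule, was 5.87-fold higher at 0.0215, and Slc12a1, the salt carrier of the thick ascending limb, 3.02-fold at 0.0187.

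Slc5a3, which takes up myo-inositol in cells under high salt, read 7.49 in FFPE and 7.21 in frozen kidney and 5.87, 6.24 and 6.57 (lowest, median, highest) elsewhere. It was 2.16-fold higher at an adjusted p of 0.00421 and higher than each organ, by 1.01 to 1.22. It was the 1 of 14 genes for protection against high salt to pass. Of 13 Slc5 genes, 7 had both kidney libraries above all others, as did 2.85% of all tested genes, and Slc5a3 alone passed. Among the Slc genes 4 were lower. Slc8a2 (2.10-fold lower) and Slc8a3 (2.47-fold lower), both sodium-calcium exchangers, passed singly against brain alone. Slc25a22, a mitochondrial glutamate carrier, was 2.60-fold lower at 0.0017 and below all other libraries, and Slc16a6, a monocarboxylate carrier, was 1.86-fold lower at 0.0343. Without FFPE kidney 6 Slc genes were higher and 3 lower.

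The small Fxyd family, whose members regulate the sodium pump, split in its 2 changed genes. Fxyd2, the subunit known from kidney (chromosome 9, 45399709 to 45410278), read 5.46 in FFPE and 6.37 in frozen kidney against 1.74 to 3.23. It was 8.22-fold higher with an adjusted p of 0.00168. Fxyd1, the member known from heart and muscle (chromosome 7, 31051678 to 31055873), read 3.53 and 2.61 in kidney against 4.56 to 6.48. It was 4.94-fold lower with an adjusted p of 0.00351. Both passed against each organ, so the pair exchanged places in kidney relative to all 3. The other 5 tested Fxyd genes did not pass.

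**Figure D3:**
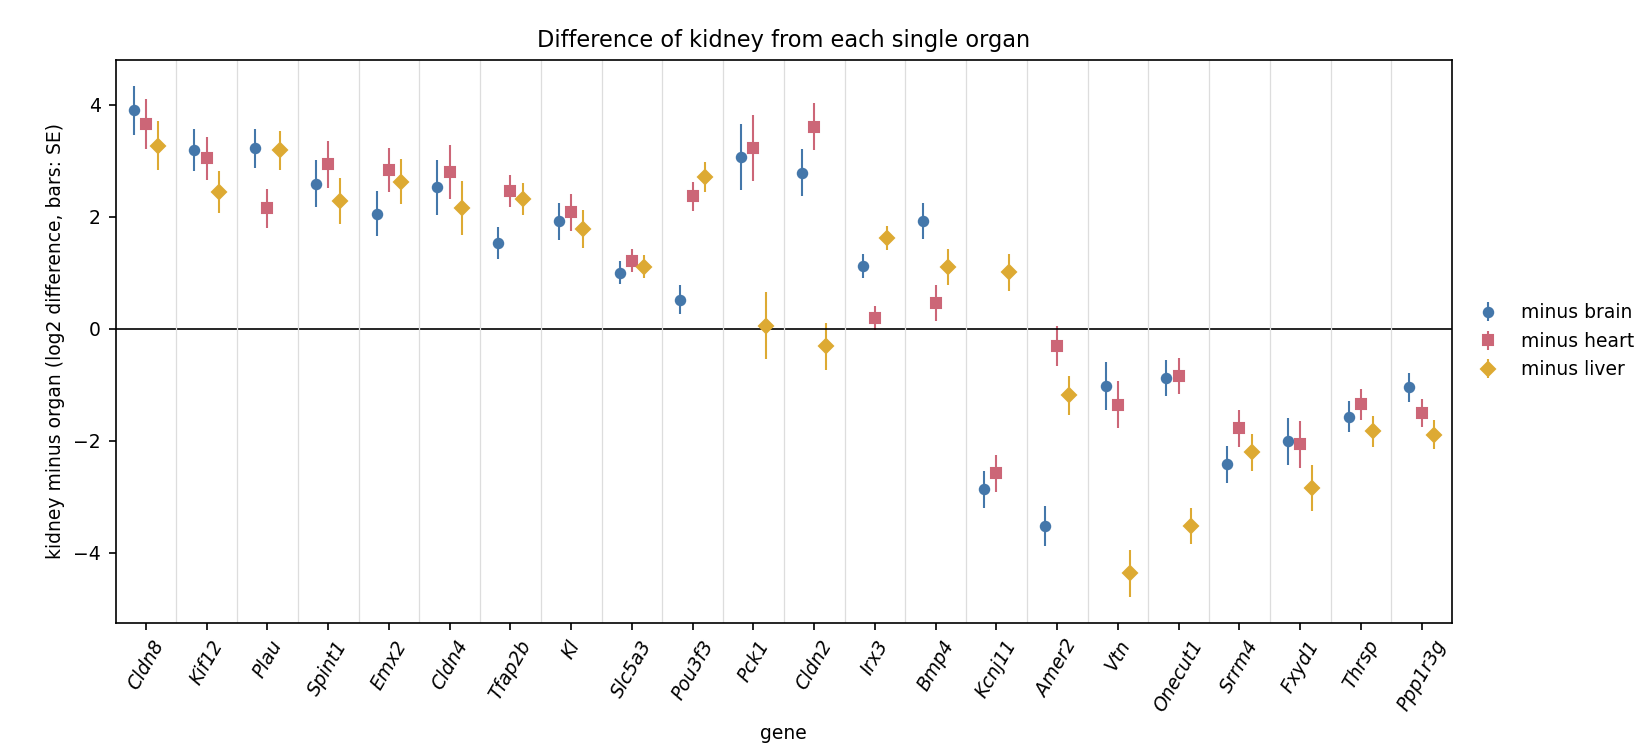
Log2 difference of kidney from brain, heart and liver singly (vertical axis, bars are SE from the limma model) for 22 genes. From Cldn8 to Slc5a3 all 3 differences are above 0. Pck1 and Cldn2 are near 0 against liver, at 0.06 and -0.31, and Srrm4, Fxyd1, Thrsp and Ppp1r3g are below 0 against every organ.

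Single genes of the basement membrane and of cell adhesion were higher. They made up 4.55% of 44 collagen, 9.09% of 11 laminin and 6.45% of 31 integrin genes, against 0.802% of all tested genes. These shares rest on 1 or 2 genes each and were counted, not tested. Col4a3 and Col4a4 encode chains of the collagen network that the glomerular filter rests on. They overlap head to head on chromosome 1, Col4a3 from 82586921 to 82722059 and Col4a4 from 82448419 to 82587034. Col4a3 read 7.10 and 7.12 in kidney against 4.95 to 6.21, and Col4a4 read 6.57 and 6.66 against 4.47 to 6.03. Their differences were 1.38 ± 0.24 and 1.28 ± 0.23, with adjusted p of 0.0102 and 0.0125, and neither passed against heart. They were the only 2 of 44 collagen genes to pass, and share a start region, so they may be 1 signal. Npnt, nephronectin, a matrix ligand of integrins in the forming kidney, read 5.80 and 6.31 against 3.95 to 4.95, and was 3.01-fold higher and higher than each organ. These 3 were the only ones of 16 podocyte genes to pass, where 1.21% of all tested genes passed. Nphs1 and Wt1, defining genes of the podocyte, had differences of 0.03 and 0.12, signs that turned when single libraries were left out, and Synpo had -0.43.

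Lamb1, a laminin chain, read 6.90 and 7.13 against 4.77 to 6.70 and was 2.53-fold higher. It stood 0.47 above heart, which did not pass (adjusted p = 0.61). Tinag, a tubular basement membrane protein, was 3.56-fold higher at an adjusted p of 0.0343. Its relative Tinagl1 passed overall (2.01-fold, 0.0332) but was level with heart, at -0.07. Among 31 integrin genes, Itgb6 (2.42-fold) and Itgb8 (2.08-fold) passed. Both form integrins that activate TGF-beta. Lamb1, Tinag, Tinagl1, Itgb6 and Itgb8 were named after their values were seen.

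Signals that guide branching of the kidney tree passed at 3 of 31 genes higher and 1 lower, with a median difference of 0.24. All tested genes had shares of 0.802% higher and 0.405% lower. Npnt was one of the 3. Bmp7, which keeps nephron progenitors alive, read 5.32 and 5.87 against 4.03 to 4.80 and was 2.21-fold higher with an adjusted p of 0.0492. Bmp4, a signal of the stroma around the ureter, was 2.25-fold higher at 0.0476, and frozen heart (5.85) exceeded FFPE kidney (5.76). Both lie close to the threshold. Sostdc1, a secreted antagonist of such signals, on no list and named after its values were seen, read 5.42 and 6.15 against 2.63 to 3.86. It was 4.98-fold higher at 0.00168, and higher than each organ. Etv4, an ETS factor downstream of Ret signalling at the branching tips, went the other way. It read 3.97 and 4.77 in kidney against 4.98 to 5.90, 2.04-fold lower at 0.0326. Bmp1, a procollagen protease despite its name, was 2.08-fold lower. Without FFPE kidney 0 of the 31 genes passed.

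Smaller lists passed at single genes, where 0.802% of all tested genes were higher and 0.405% lower. Mep1a, a brush border metalloprotease, was the 1 of 14 brush border enzymes to pass, 3.10-fold higher at an adjusted p of 0.0377. Among 21 genes of cystic kidney disease, Glis3, a zinc finger factor of the cilium, was 2.61-fold higher at 0.015, and Cys1, a ciliary membrane protein, 2.09-fold at 0.0218. Cys1 overlapped with other libraries, passing singly against brain alone, and Pkd1 had a difference of -0.35. Genes on no list with large differences were Tmem174, a membrane protein of the proximal tubule, Kif12, a kinesin of renal epithelium, and Pdzk1ip1, a small membrane protein of the tubule. Tmem174 read 5.85 and 7.03 against 1.11 to 3.59 and was 11.7-fold higher. Kif12 read 6.23 and 6.76 against 3.09 to 4.46 and was 7.45-fold higher. Pdzk1ip1 was 7.07-fold higher and did not pass against liver. Defb1, a defensin of urinary epithelia, rested on 130 reads in kidney and 66 elsewhere and was 5.99-fold higher at 0.0307. Wfdc15b, Smim22 and Tmem252 followed, at 5.99-fold, 5.59-fold and 6.59-fold, with adjusted p from 0.0347 to 0.0481.

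Metabolic genes that kidney shares with liver were compared as a list. In a list of 25 such genes 0 passed in limma, while 11 had an unadjusted p under 0.05, all of these higher in kidney, and the median difference was 0.69. Without frozen liver 4 were higher, and without FFPE liver 1 was higher and 2 lower. Pck1, the rate-limiting enzyme of glucose formation in both organs, read 6.05 and 7.53 in kidney. The other libraries ran from 3.22 over a median of 3.91 to 8.14. Its overall adjusted p was 0.0507. Kidney stood 3.07 above brain and 3.23 above heart, both passing, and 0.06 from liver. Cltrn, a partner of amino acid carriers in the brush border, was above all 6 libraries but rested on 99 reads in kidney, with an adjusted p of 0.104. The contrast with the mean of 3 organs counts liver among the others. The median difference of the 25 genes was 1.26 from brain, 1.12 from heart and -0.88 from liver. What part liver has in the count of 0 was not tested. Of 20 genes of glucose and ammonia handling 0 passed in limma, with 8 at an unadjusted p under 0.05, but 5 were higher and 1 lower without FFPE liver, 3 higher without frozen liver and 2 without FFPE brain.

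Several of the lower genes are known from the other organs. Srrm4, a splicing regulator of neurons (chromosome 5, 116439268 to 116592562), read 5.51 in FFPE and 4.08 in frozen kidney against 6.56 to 7.23, and was 4.39-fold lower at an adjusted p of 0.00135. It was lower than brain (-2.42), but also than heart (-1.78) and liver (-2.21), where this neuronal gene read 6.56 to 7.19. Celf4, an RNA-binding protein of neurons, was 1.99-fold lower and passed singly against brain alone, as did Amer2 (3.18-fold lower). Kcna2, a channel of axons, passed against brain. Kcnj11, the pore of the channel that closes with rising ATP, read 4.24 and 4.00 in kidney against 2.69 to 7.11. Its kidney difference was -2.87 from brain and -2.58 from heart, but 1.01 from liver.

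Other lower genes passed singly against liver. Vtn, vitronectin of plasma and matrix (chromosome 11, 78499120 to 78502325), read 3.85 and 3.06 in kidney, with 4.45, 4.81 and 8.65 as lowest, median and highest elsewhere, and was 4.75-fold lower at 0.00445. Its single difference was -4.37 from liver, which passed, and -1.02 from brain and -1.36 from heart, which did not. Rbp4, the retinol carrier of plasma (3.29-fold lower), and Onecut1, a liver transcription factor (3.35-fold lower), likewise passed singly against liver alone. Onecut1 was the 1 of 22 hepatocyte genes to pass. Their median difference was -0.65, and -2.77 from liver alone, and without FFPE liver 12 of the 22 were lower. Clu, a secreted chaperone named after its values were seen, was 2.67-fold lower at 0.0187 and passed against brain and liver.

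The next lower genes belong to no list and are described singly. Ppp1r3g, a subunit that targets a phosphatase to glycogen (chromosome 13, 35958824 to 35970388), read 3.77 and 4.67 in kidney against 4.86 to 6.79, and was 2.79-fold lower at an adjusted p of 0.00252. Its relative Ppp1r3c read 4.43 and 3.78 against 4.93 to 8.20 and was 3.60-fold lower at 0.0236, and passed singly against liver alone. Thrsp, a regulator of fatty acid synthesis (chromosome 7, 97412933 to 97417550), read 3.88 and 4.45 against 5.20 to 6.52, 2.99-fold lower at 0.00252. Both Ppp1r3g and Thrsp were lower than brain, heart and liver singly. Scd1, a fatty acid desaturase, was 1.78-fold lower at 0.0326 and level with heart (0.02). Ablim3, an actin-binding protein, was 2.71-fold lower at 0.0017, and Shisa8 5.59-fold lower at 0.0116. Ppp1r14c and Smoc1 were lower by 3.41-fold and 3.49-fold. Ppp1r3g, Thrsp, Scd1, Ablim3 and A930018M24Rik were named after their values were seen.

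Many families held no gene that passed in limma. Over all 25680 tested genes 1.21% passed, and 2480 had an unadjusted p under 0.05 in limma. In families of 10 to 102 genes, 0 lies close to that share of 1.21%. Of 102 cytochrome P450 genes 0 passed, with 12 at an unadjusted p under 0.05. Of 50 ABC transporters 0 passed, with 7 at that level. Among 82 genes of cytoplasmic ribosomal proteins 0 passed, with 2 at that level, and among 100 genes of the respiratory complexes 0 passed, with 3. In 22 subunits of the proton pump of acid-secreting tubule cells, the vacuolar ATPase, 0 passed, with 2 at that level and a median difference of 0.13. Of 10 endocytosis receptors 0 passed, with 3 at that level. Of 1122 olfactory receptor genes 0 passed, with 38 at that level. Their median difference was 0.24, above the 0.02 of all genes. It was 0.43 in frozen and 0.08 in FFPE tissue, and by organ -0.03 from brain, 0.30 from heart and 0.24 from liver. Among 17 housekeeping genes 0 passed, with 0 at that level and a median of 0.03.

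Markers of cell types that a kidney piece could bring along were checked by list. Summed CPM values were 188 to 229 in kidney against 183 to 274 elsewhere for 15 adrenal genes, and 169 to 228 against 221 to 329 for 12 adipocyte genes. For 10 urothelial genes they were 92.5 to 166 against 58.9 to 148, for 14 endothelial genes 724 to 728 against 450.1 to 1179, and for 14 immune genes 190.4 to 335 against 167 to 367. In each of these 5 lists 0 genes passed, with 1, 1, 1, 3 and 1 at an unadjusted p under 0.05. Since 1.21% of all tested genes passed, 0 in lists this small does not set them apart. No defining marker of them had 0 reads in both kidney libraries, so none of these types can be called absent. Of 20 neuron genes 2 were lower, and of 19 heart muscle genes 0 passed, with 6 at an unadjusted p under 0.05. The part of these cells in the gene differences above was not tested.

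The genes that passed had the same direction in both preservation types. All 206 higher genes were above the mean of the other organs in frozen and in FFPE tissue, and all 104 lower genes below it. The size differed. The median of the 206 was 2.09 in frozen and 1.34 in FFPE tissue, and 191 of them were larger in frozen tissue. The median of the 104 was -1.48 and -1.04, with 91 larger in frozen tissue. The share of all tested genes with a larger difference in frozen tissue was not counted. The frozen library of each organ was shallower than its FFPE library, and the part of depth in these sizes was not tested. Umod, for example, stood 4.00 above the others in frozen and 1.75 in FFPE tissue, and Pax8 3.48 and 1.42, whereas Irx2 (1.82 and 1.76) and Slc5a3 (1.14 and 1.08) had nearly equal values. The genes were chosen on the mean of both types, so their shared direction is a description and no test. Over all tested genes, 60.6% had the same sign in both types. Kidney lay above brain, heart and liver in both types at 1806 genes and below them in both at 1235, and on opposite sides of them at 1284. In a model with a term for the kidney difference by preservation, 0 of 25680 genes passed in limma (0%), and 354 had an unadjusted p under 0.05. Among the 206 higher and 104 lower genes the smallest adjusted p of this term in limma was 0.999953. The model left 2 residual degrees of freedom.

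**Figure D4:**
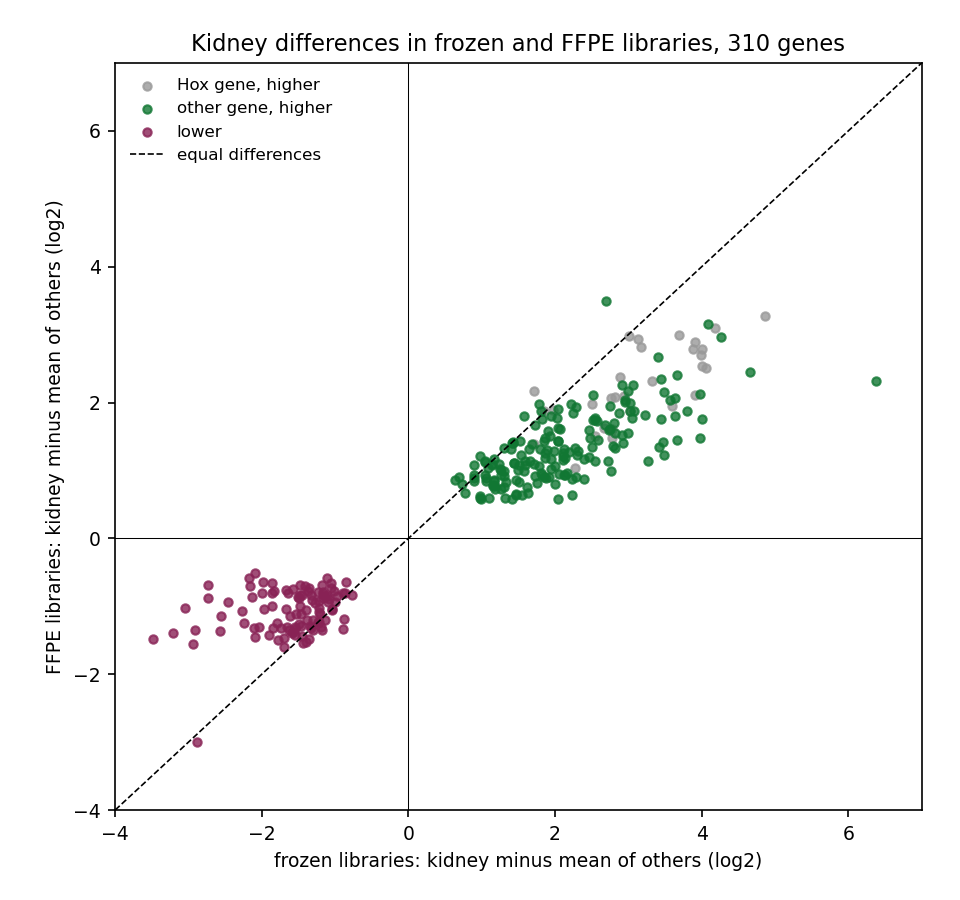
Kidney minus the mean of brain, heart and liver in FFPE libraries (vertical axis, log2) against the same difference in frozen libraries (horizontal axis, log2) for the 310 genes that passed, with the dashed line where both are equal. All points lie in the quadrants of equal sign, and 191 of the 206 higher genes lie below the line. The point farthest right, at 6.38 in frozen and 2.31 in FFPE libraries, is Kap, named after its values were seen. Kap rests on 151 reads in kidney and 43 in the other libraries together. Its values in frozen brain (-2.27) and frozen heart (-1.83) are the lowest these libraries can take, so 6.38 depends on their depth.

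Some neighbouring genes passed together. The share of neighbours among all tested genes was not counted. Among the 300 genes that passed and have coordinates, 152 pairs lay within 100 kb of each other, most of them in the Hox clusters, and 25 pairs held no gene of a Hox cluster. In 23 of the 25 both genes had the same direction. Some of the 25 overlap or share a gene, such as those among Slc6a18, Slc6a19 and Slc6a19os, so they are not separate cases. Besides the pairs already given, Tmem176a and Tmem176b overlap on chromosome 6, Scnn1a lies 17708 bases from Plekhg6, and Umod 75078 bases from Acsm2. The pairs of opposite direction were Slc34a1 (higher) with Prr7 (lower), and Miox (higher) with Odf3b (lower). Counts of genes in a family can therefore hold 1 marked region more than once. These neighbours were named after their values were seen.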

How the data were processed

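H3K4m3-Seq was analysed in 8 libraries (1 table column for each of brain, heart, kidney and liver, frozen and FFPE). The columns name no antibody and were taken as H3K4m3 from the titles of the table and series; inputs were not used. The authors deposited log2 values per gene, and per the submitters' processing notes they used Bowtie2, featureCounts and limma with the build mm10, no versions being named. Which part of a gene was counted is not given in these sources. Whole reads were recovered from the deposited log2 values to within 0.001 for 100% of values.

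Genes with a mean log2 value of at least 0 (25680 of 27179) were fitted with limma 3.58.1 in R 4.3.3 (organ and preservation as terms, empirical Bayes with trend, 3 residual degrees of freedom). The kidney coefficient was set against the mean of the other 3 organs and against each singly, with Benjamini-Hochberg adjustment over all tested genes. The script was tested on simulated data. The labels do not tie libraries to separate animals. Each organ has 1 frozen and 1 FFPE column, and these stand in for replicates. The SE and p-values thus rest on how far frozen and FFPE libraries of an organ disagree after a shared preservation shift. They do not measure spread among replicates of 1 preparation, and the variation among the 8 libraries may be technical. Folds are on the log2 scale with 0.5 reads added and understate the change of low genes. A negative binomial test was not run, since the files hold log2 values; precision weights on the recovered reads were added after seeing the data.

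Members, gene lists and families were chosen with earlier results of these data known. Named genes were the 4 markers, the 15 highest and 10 lowest that passed without overlap (Hox, tubule list and unnamed genes left out), the 3 smallest p and the most opposed member of each list, members that passed in families with 3 or more such members, and the 5 with the largest smallest difference from single organs; not all are printed, and a few items are not reported here. Coordinates are from RefSeq's GRCm38 tables (mm10 is GRCm38), which 24252 of the tested gene IDs match. Alternatives were quantile normalization, other low-value filters, array weights, a 2-level term and leaving out each library.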

Additional observations from a re-analysis of the deposited data

How the results depend on the processing

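The 310 genes that passed against the mean of the other organs became 793 with quantile normalization (479 higher, 314 lower), 201 without the low-value filter, 1005 with array weights (551 higher, 454 lower) and 0 with a 2-level term, while a minimum mean log2 of 2 gave 340. Precision weights on recovered reads, chosen after seeing the data, gave 459 (366 higher, 93 lower). The 66 genes that differed from each organ singly became 123 with quantile normalization and 37 without the filter. Leaving out 1 library gave 0 to 1030 genes for the first count and 0 to 140 for the second. The kidney difference by preservation passed at 0 genes in every setting run, and could not be fitted without either kidney library. Of the genes named, Wt1 and Nphs1, which did not pass, turned sign when 1 library was left out, ranging from -0.057 to 0.296 and from -0.084 to 0.147. No paired analysis was possible because the table columns carry no replicate number and each organ and preservation type has 1 column. An edgeR alternative that had been planned was not run because the files hold log2 values. Depth limits low genes most: Klk1, Defb1 and Cltrn rest on 122, 130 and 99 kidney reads. A gene listed with few reads in frozen heart, the shallowest library, is the least certain.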
